A study of Mus musculus with 12 samples.

Results

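Livers of mice that had shared a cage with mice from another vendor were compared with livers of mice that had been kept with mice of their own vendor. The cohoused group held 6 RNA sequencing libraries, 3 from Jackson mice housed with Taconic mice (CoJAX) and 3 from Taconic mice housed with Jackson mice (CoTAC). The separately housed group held 6 libraries, 3 from Jackson mice housed with Jackson mice (JAX) and 3 from Taconic mice housed with Taconic mice (TAC). These are all 12 libraries of the series. All mice were C57BL/6 and were housed in these ways for 4 weeks before the liver was taken. The labels state no sex, age, cage number or number of mice per library. Nothing in them ties a library to its own mouse, so the spread behind each p-value is that between libraries and may be partly technical. Libraries from cage mates cannot be recognised either, and every library was treated as independent.

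Jackson and Taconic colonies carry different gut bacteria. Mice that share a cage eat each other's droppings, and their gut communities grow more alike. The liver takes blood straight from the gut through the portal vein, so bacterial products, bile acids and other metabolites reach hepatocytes, Kupffer cells (the resident macrophages) and sinusoidal endothelial cells before the rest of the body. The comparison asks which liver genes differ with such an exchange when vendor is held constant.

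Levels are given in RPKM, the deposited unit, which scales reads by transcript length and by the reads of the library. Of 23909 genes, 12058 had at least 1 RPKM in at least 3 libraries and were tested. Differences are cohoused minus separately housed on the log2(RPKM + 0.5) scale, from a linear model with vendor as a block. This scale understates the change of low genes. A gene is said to have risen or fallen only where its Benjamini-Hochberg adjusted p over all 12058 genes was under 0.05.

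In this comparison 3822 of 12058 genes passed (31.7%), 1881 of them higher in cohoused livers (15.6%) and 1941 lower (16.1%). In 1702 genes (14.1%) the cohoused and separate libraries did not overlap within either vendor, in the same direction. In 481 genes (3.99%) all 6 cohoused libraries lay on one side of all 6 separate ones. The cohoused libraries were also deeper. Relative to the library JAX 1, depth estimated from the steps between low RPKM values was 1.09 to 1.88 in cohoused libraries, with a median of 1.63, and 0.758 to 1.75 in separate libraries, with a median of 0.899 (two-sided exact permutation test within vendor, p = 0.02, 400 arrangements, smallest possible p 0.005). The steps correspond to about 2050000 to 3540000 reads in cohoused libraries and 1430000 to 3300000 reads in separate libraries. With relative depth as a covariate 2 genes passed, both higher (0.0166%), Slc25a30 and Slc25a34, and 0 were lower (0%), although 2004 genes had an unadjusted p under 0.05. The median standard error grew to 0.19 with this covariate, against 0.14 without it. Of the 3822 genes, 3775 kept their sign with it, and their median absolute difference was 0.34 with the covariate and 0.52 without it. Housing and depth overlap in these libraries, and their parts in the difference of a single gene cannot be told apart beyond these values. Every other gene said below to have risen or fallen lost its call with depth as a covariate.

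Over all genes 15.6% were higher and 16.1% lower, and a count near or below these shares is no result about a list. Gene lists for 30 liver pathways and 8 sets of cell type markers were read against these shares. Genes of the machinery that moves proteins out of the endoplasmic reticulum had the largest share of higher genes among them, and the ribosomal protein genes the largest share of lower genes.

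**Figure D1:**
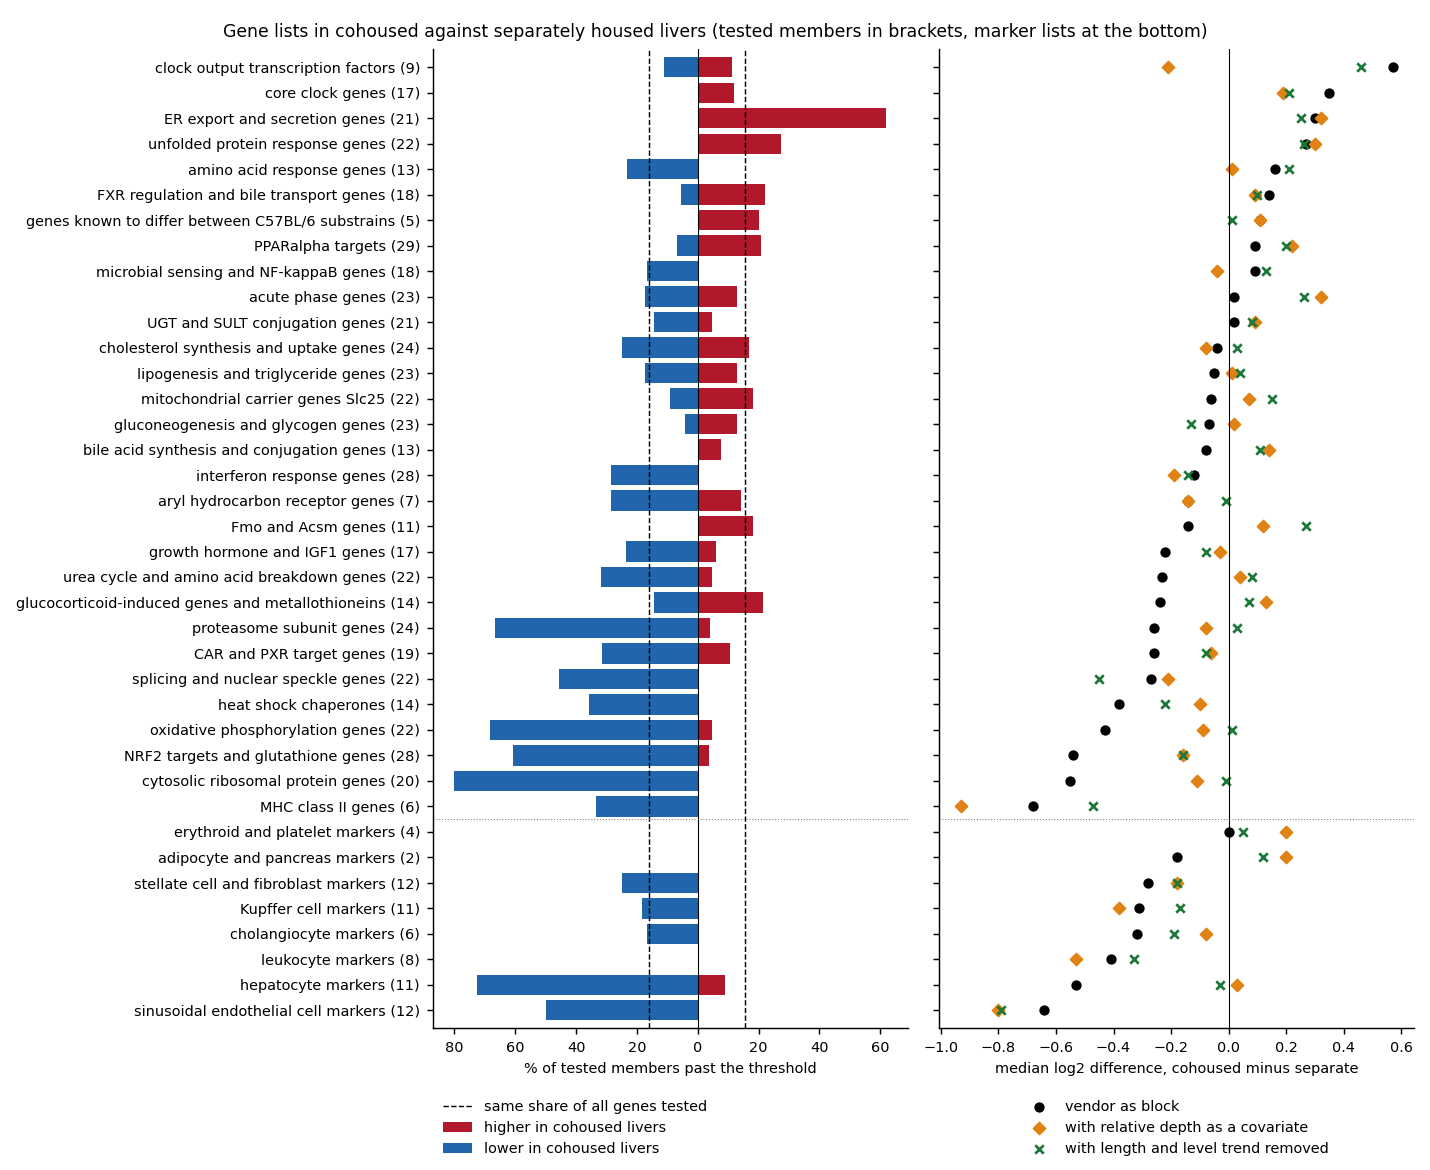
Left, the percentage of tested members of each gene list past the threshold, higher in cohoused livers to the right and lower to the left, with dashed lines at the shares of all genes tested (15.6% and 16.1%). Right, the median log2 difference of each list with vendor as a block (dots), with relative depth as a covariate (diamonds) and with a trend on transcript length and level removed from each library (crosses). The endoplasmic reticulum export list had 13 of 21 members higher and medians between 0.25 and 0.32 in the 3 fits, while the ribosomal, oxidative phosphorylation and proteasome lists moved close to 0 in the other fits.

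Newly made secretory proteins leave the endoplasmic reticulum in vesicles coated by COPII, whose inner layer is made of SEC23 and SEC24 and whose outer layer contains SEC31. COPI vesicles carry material back. The hepatocyte secretes most plasma proteins through this route. Of 21 tested genes of export and secretion, 13 were higher in cohoused livers and 0 were lower. The median difference was 0.30, against -0.01 over all genes, and it was 0.32 with depth as a covariate, where all 21 members were positive. It was 0.24 in Taconic and 0.37 in Jackson mice. The tested members had a median transcript length of 4109 nucleotides. Among all tested genes with transcripts of 3424 to 4851 nucleotides, 24% were higher, with a median difference of 0.14. With a trend on transcript length and level removed, 11 of the 21 were higher and 0 lower, against 10.1% and 10.3% of all genes. In 12 of the 21 genes the cohoused and separate libraries did not overlap within either vendor, which among all genes was so for 14.1% in either direction. Besides the genes described here, Sec24a, Sec24b, Sec31a, Tango2, Lman1, Trappc8, Golga4 and Copa rose. Sec23b, Sar1a, Sar1b, Mcfd2, Surf4, Tmed2, Tmed10 and Golgb1 did not pass the test, and Mia3 was listed at 0 in every library.

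Sec23a, an inner COPII subunit, had 41.3, 47.0 and 42.2 RPKM in CoJAX and 66.6, 47.9 and 46.5 RPKM in CoTAC, against 25.4, 25.5 and 24.8 RPKM in JAX and 27.5, 32.1 and 38.6 RPKM in TAC. Every cohoused library lay above every separate one, and the difference was 0.74 ± 0.10 (SE; adjusted p = 0.0022). Sec24d, a cargo-binding COPII subunit, had 59.0, 57.5 and 65.5 RPKM in CoJAX and 85.6, 53.8 and 67.0 RPKM in CoTAC, against 24.0, 29.6 and 19.2 RPKM in JAX and 38.8, 44.4 and 47.2 RPKM in TAC. The groups again did not overlap, with a difference of 0.98 ± 0.16 (SE; adjusted p = 0.0028). Copb1, a COPI coat subunit chosen after its values were seen, ran between 60.2 and 82.2 RPKM in cohoused libraries and between 44.6 and 59.2 RPKM in separate ones, a difference of 0.39 ± 0.08 (SE; adjusted p = 0.0065). Sec16a, which marks the sites where COPII vesicles form, had a median of 26.8 RPKM (19.3 to 34.3) in cohoused livers and 16.8 RPKM (13.2 to 22.3) in separate livers. Its groups overlapped across vendors but not within either, and it differed by 0.62 ± 0.11 (SE; adjusted p = 0.0038). Mia2, which with its relatives loads large cargo into COPII vesicles, had the largest difference of the list, at 2.25 ± 0.39 (SE; adjusted p = 0.0038). Mia2 had 20.6, 51.4 and 33.2 RPKM in CoJAX and 57.7, 48.7 and 42.9 RPKM in CoTAC, against 3.57, 4.47 and 4.28 RPKM in JAX and 4.91, 21.3 and 33.7 RPKM in TAC. The TAC group was split, with the library TAC 1 at the JAX level and TAC 2 and TAC 3 near the cohoused range. TAC 1 was also shallow, at a relative depth of 0.794, against 0.758 to 1.0 in JAX, 1.05 in TAC 2 and 1.75 in TAC 3. With depth as a covariate the difference of Mia2 was 1.31 ± 0.46 (SE). The part of depth in this split was not tested.

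The unfolded protein response raises chaperones and export genes when unfolded protein builds up in the endoplasmic reticulum. Its sensors include ATF6 and ERN1 (IRE1), which splices the mRNA of the factor XBP1. Of 22 tested genes of this response, 6 were higher in cohoused livers (27.3%) and 0 were lower, against 15.6% and 16.1% of all genes. The median difference was 0.27, and 0.30 with depth as a covariate. The median was 0.07 in Taconic mice, with 12 positive and 10 negative differences, and 0.46 in Jackson mice. The members that rose were the sensors Atf6 and Ern1, the factor Xbp1, the chaperone genes Hyou1 and Dnajc3 and the degradation factor Sel1l. Atf6 had a median of 24.6 RPKM (21.1 to 29.6) in cohoused livers and 14 RPKM (13.4 to 20.7) in separate livers, with no overlap and a difference of 0.67 ± 0.12 (SE; adjusted p = 0.0039). Ern1 differed by 1.26 ± 0.29 (SE; adjusted p = 0.0081), with 6.30 to 17.9 RPKM in cohoused libraries and 2.20 to 13.5 RPKM in separate ones, which overlapped through the TAC libraries. Dnajc3, which encodes a chaperone of the lumen that also restrains the kinase PERK, differed by 0.46 ± 0.12 and Xbp1 by 0.34 ± 0.09 (SE; adjusted p = 0.012 and 0.016). The main luminal chaperones Hspa5, Hsp90b1, Calr and Canx did not pass the test. The library CoTAC 2 stood apart in this list: its members had a median of -0.34 against the mean of their vendor, while the other 5 cohoused libraries had medians of 0.13 to 0.27.

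**Figure D2:**
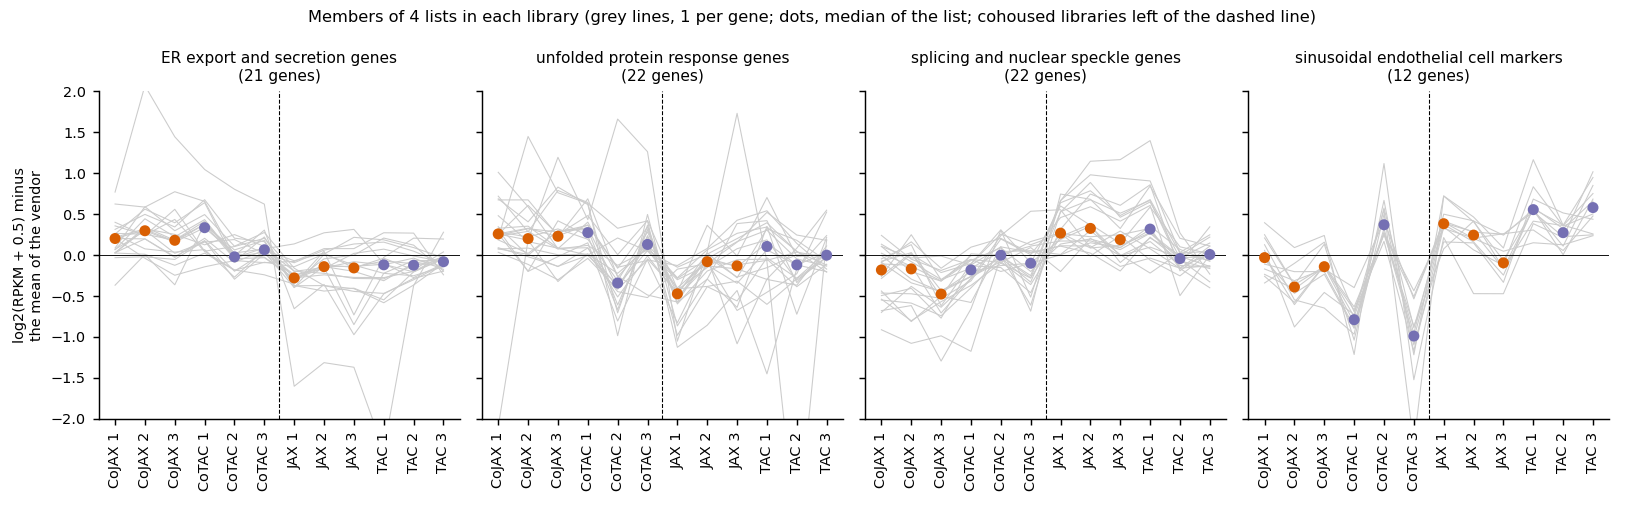
Each grey line is 1 gene and each dot the median of a list in 1 library, as log2(RPKM + 0.5) minus the mean of the 6 libraries of the same vendor (orange dots, Jackson; purple dots, Taconic). Cohoused libraries are left of the dashed line. The export genes had medians of -0.02 to 0.34 in cohoused libraries and of -0.28 to -0.08 in separate ones. The splicing genes had medians of -0.48 to -0.0 in cohoused libraries and of -0.04 to 0.33 in separate ones, with overlap in Taconic mice (CoTAC 2 at -0.0, TAC 2 at -0.04). The endothelial markers varied most between the CoTAC libraries, and 5 single points lie outside the axis.

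The promoters of these 2 lists were searched, after their values had been seen, for 2 motifs known from this response. The first was TGACGTGG, the core of the element bound by ATF6 and XBP1, and the second was the endoplasmic reticulum stress element, CCAAT and CCACG with 9 bases of any kind between them. Both strands were searched, from 250 bases before to 50 bases after the gene start, in promoters from RefSeq on the build GRCm38.p6. In a list a gene was counted if any of its promoters held a match, while the share over all promoters counts each promoter singly. The shares below are therefore of unlike units. TGACGTGG stood in 3 of 16 export genes with an entry (18.8%), namely Sec23a, Sec24d and Copb1, and in 222 of 32851 promoters in all (0.676%). It stood in 0 of 19 genes of the unfolded protein response with an entry. The longer element stood in 8 of 19 genes of the unfolded protein response with an entry (42.1%) and in 39 of 32851 promoters (0.119%), but in 0 of 16 export genes. Of those 8 genes only Dnajc3 rose, while Calr, Canx, Creld2, Derl3, Hsp90b1, Hspa5 and Pdia6 did not pass the test. A match is a description of the letters and not evidence of binding. The 4 promoters of genes that rose and hold a match are shown 5′ to 3′ on the strand of the gene, with the match in capitals. They lie at chr12:59011968-59012267 on the minus strand (Sec23a), chr3:123267246-123267545 on the plus strand (Sec24d), chr7:114254631-114254930 on the minus strand (Copb1) and chr14:118937682-118937981 on the plus strand (Dnajc3). In Copb1 the match reads as its reverse complement.
Sec23a: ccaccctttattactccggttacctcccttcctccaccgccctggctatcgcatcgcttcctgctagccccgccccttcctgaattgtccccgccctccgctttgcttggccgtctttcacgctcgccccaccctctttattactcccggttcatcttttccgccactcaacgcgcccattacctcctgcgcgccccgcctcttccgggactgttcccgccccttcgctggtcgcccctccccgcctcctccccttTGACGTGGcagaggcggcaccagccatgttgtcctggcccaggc
Sec24d: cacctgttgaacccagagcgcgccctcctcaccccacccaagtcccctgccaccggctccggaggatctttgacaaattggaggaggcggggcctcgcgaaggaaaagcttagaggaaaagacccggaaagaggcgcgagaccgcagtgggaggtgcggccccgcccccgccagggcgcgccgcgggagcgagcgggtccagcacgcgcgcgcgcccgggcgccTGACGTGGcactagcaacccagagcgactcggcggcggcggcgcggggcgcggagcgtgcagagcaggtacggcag
Copb1: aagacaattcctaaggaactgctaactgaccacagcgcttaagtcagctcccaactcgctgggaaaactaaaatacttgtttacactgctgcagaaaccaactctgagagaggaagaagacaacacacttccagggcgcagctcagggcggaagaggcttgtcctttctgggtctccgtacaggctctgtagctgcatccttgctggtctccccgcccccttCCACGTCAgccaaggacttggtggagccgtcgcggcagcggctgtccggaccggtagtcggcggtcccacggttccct
Dnajc3: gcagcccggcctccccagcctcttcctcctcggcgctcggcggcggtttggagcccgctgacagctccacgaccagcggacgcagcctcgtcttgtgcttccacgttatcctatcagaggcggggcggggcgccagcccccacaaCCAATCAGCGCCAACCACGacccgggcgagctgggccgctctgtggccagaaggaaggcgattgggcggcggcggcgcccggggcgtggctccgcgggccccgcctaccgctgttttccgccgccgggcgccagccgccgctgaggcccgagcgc

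Genes whose libraries did not overlap within either vendor were ranked by their difference, leaving out unnamed gene models and small RNA genes. The largest was that of Slc25a30, which encodes a carrier of the inner mitochondrial membrane. It had 19.2, 27.6 and 24.9 RPKM in CoJAX and 49.5, 92.0 and 47.6 RPKM in CoTAC, against 2.77, 1.93 and 2.84 RPKM in JAX and 3.49, 5.55 and 10.5 RPKM in TAC. The groups did not overlap. Its difference was 3.13 ± 0.23 (SE; adjusted p = 6.86e-05), and it was 2.51 ± 0.26 with depth as a covariate (adjusted p = 0.0067). It passed in Taconic mice alone as well, where 9 of 11432 genes did (0.0787%; adjusted p = 0.048), but not without the library TAC 1 (2.89; adjusted p = 0.122). Slc25a34, another carrier of the same family, chosen after its values were seen, had 15.9, 11.2 and 14.7 RPKM in CoJAX and 19.9, 16.9 and 18.1 RPKM in CoTAC, against 6.52, 7.0 and 5.90 RPKM in JAX and 7.74, 7.96 and 5.42 RPKM in TAC. Its groups did not overlap either, and it differed by 1.18 ± 0.13 (SE; adjusted p = 0.00095), and by 1.37 ± 0.17 with depth as a covariate (adjusted p = 0.033). Of 22 tested genes in the Slc25 list, which does not hold Slc25a34, 4 were higher and 2 were lower, with a median of -0.06. Slc25a42, the mitochondrial carrier of coenzyme A, rose by 0.49 ± 0.09 and Slc25a33, a pyrimidine nucleotide carrier, by 0.46 ± 0.08 (SE; adjusted p = 0.0036 and 0.0039). Slc25a4, an ADP/ATP carrier, fell by 0.77 on the log2 scale.

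**Figure D3:**
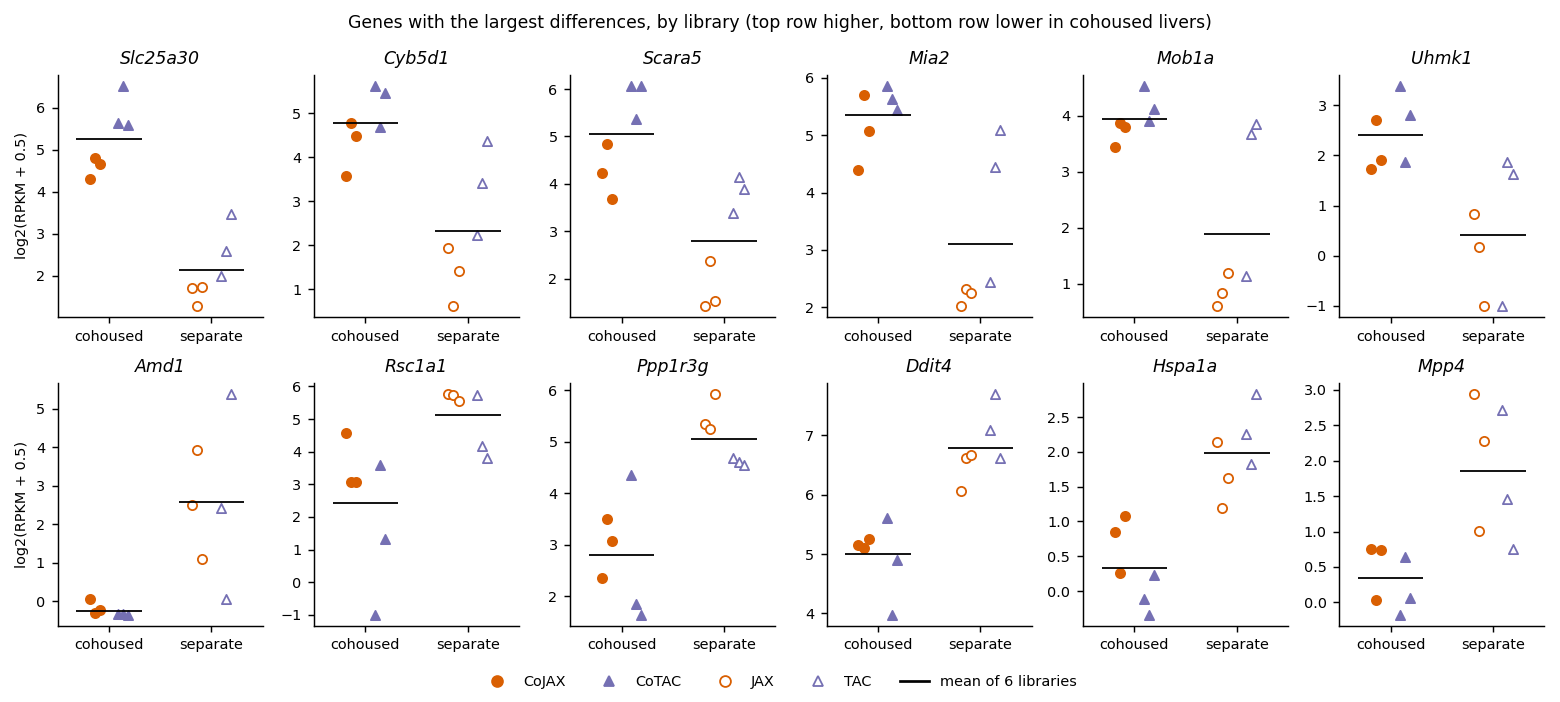
log2(RPKM + 0.5) in each library for the 6 named genes with the largest rises (top) and the 6 with the largest falls (bottom), cohoused libraries left of separate ones, with a bar at the mean of 6 libraries. Slc25a30, Amd1, Ppp1r3g, Ddit4, Hspa1a and Mpp4 show no overlap between all cohoused and all separate libraries, and in Mia2 and Mob1a 2 of the TAC libraries sit near the cohoused ones. The choice of genes that do not overlap within either vendor favours such separation.

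The other 14 of the 15 largest rises that did not overlap within either vendor were Cyb5d1, Scara5, Mia2, Mob1a, Uhmk1, Foxq1, Abhd2, Gna12, Hook1, Epm2a, Mpzl3, Erbb3, Pdpr and Strn. Their differences ran from 1.62 (Strn) to 2.44 (Cyb5d1). Scara5, a receptor that takes up ferritin, had 18.2, 28.2 and 12.4 RPKM in CoJAX and 66.9, 40.8 and 66.0 RPKM in CoTAC, against 2.19, 4.67 and 2.38 RPKM in JAX and 9.88, 17.3 and 14.3 RPKM in TAC. It was higher with cohousing in each vendor and higher in Taconic than in Jackson mice under either housing, with a housing difference of 2.25 ± 0.24 (SE; adjusted p = 0.00095). Erbb3, a receptor of the epidermal growth factor receptor family that binds neuregulins, had a median of 42.1 RPKM (31.6 to 56.9) in cohoused livers and 10.7 RPKM (7.34 to 24.4) in separate livers. Its groups did not overlap, and it differed by 1.66 ± 0.22 (SE; adjusted p = 0.0021). Gna12, the alpha subunit of a heterotrimeric G protein, had a median of 103 RPKM (57 to 121) in cohoused livers and 20.7 RPKM (9.82 to 74.2) in separate livers, which overlapped, and differed by 1.91 ± 0.36 (SE; adjusted p = 0.0045). Foxq1, a forkhead transcription factor, had 14.5 to 57.1 RPKM in cohoused livers and 4.23 to 16.5 RPKM in separate livers, with a difference of 1.99 ± 0.36 (SE; adjusted p = 0.0041). Pdpr, a regulatory subunit of the phosphatase that activates pyruvate dehydrogenase, differed by 1.63 ± 0.23 (SE; adjusted p = 0.0022), from a low level, at 2.04 to 7.06 RPKM in cohoused livers and 0.513 to 2.63 RPKM in separate livers. Epm2a, the glycogen phosphatase laforin, differed by 1.70 ± 0.43 (SE; adjusted p = 0.012) and was listed at 0 in the libraries JAX 1 and TAC 1. Leaving out the library TAC 1 from the Taconic mice brought the differences of several of these genes down: CoTAC minus TAC was 1.30 for Mob1a with it and 0.42 without it, and 1.65 for Mia2 with it and 0.87 without it, while Slc25a30 had 3.24 with it and 2.89 without it. TAC 1 was the shallowest of the TAC libraries. Over both vendors the difference of Mob1a was 2.06, and 1.20 with depth as a covariate.

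The 15 largest falls were chosen in the same way. Amd1, the S-adenosylmethionine decarboxylase that supplies polyamine synthesis, had 0.540, 0.309 and 0.356 RPKM in CoJAX and 0.293, 0.299 and 0.288 RPKM in CoTAC, against 5.17, 14.8 and 1.65 RPKM in JAX and 4.85, 0.550 and 41.0 RPKM in TAC. All cohoused libraries lay below all separate ones, but the separate libraries themselves ran over a wide range, and reads of Amd1 and its near-identical copy Amd2 cannot be told apart with certainty. No cohoused library reached 1 RPKM for Amd1, so it passed the filter through the separate libraries alone. Its cohoused values rest on few reads. The 15 genes were chosen for not overlapping within either vendor, so their lack of overlap is no separate support. The difference of Amd1 was -2.82 ± 0.70 (SE; adjusted p = 0.011). Oaz3, an antizyme that holds back polyamine synthesis, was listed at 0 in 5 of 6 cohoused libraries and had 0.283 to 1.87 RPKM in separate ones. Its transcript has 935 nucleotides, and 1 read of a 2000-nucleotide transcript is worth up to 0.35 RPKM. The values of Oaz3 therefore rest on few reads, and it too passed the filter through the separate libraries alone. Ppp1r3g, which directs a phosphatase to glycogen, had 4.64, 10.9 and 7.95 RPKM in CoJAX and 19.96, 3.10 and 2.62 RPKM in CoTAC, against 40.2, 37.7 and 60.2 RPKM in JAX and 25.4, 24.0 and 22.9 RPKM in TAC. The groups did not overlap, and it differed by -2.26 ± 0.39 (SE; adjusted p = 0.0036). Ddit4, a stress-induced inhibitor of mTORC1, had 35.3, 34.0 and 37.7 RPKM in CoJAX and 48.2, 15.3 and 29.5 RPKM in CoTAC, against 66.2, 97.4 and 102 RPKM in JAX and 136, 206 and 97.7 RPKM in TAC. It did not overlap between groups and differed by -1.79 ± 0.28 (SE; adjusted p = 0.0028). Arl4d, a small GTPase of the ARF family, had the smallest standard error of the 15: it ran between 56.4 and 97.0 RPKM in cohoused livers and between 144 and 255 RPKM in separate livers, and differed by -1.34 ± 0.13 (SE; adjusted p = 0.0009).

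Socs1, an inhibitor of cytokine receptor signalling, had 0.248 to 1.44 RPKM in cohoused livers and 1.04 to 3.65 RPKM in separate livers and fell by 1.42 on the log2 scale (adjusted p = 0.0028). Hamp2, a copy of the hepcidin gene, had a median of 63.1 RPKM (26.5 to 113) in cohoused livers and 171 RPKM (70.1 to 341) in separate livers and fell by 1.5. Its near-identical neighbour Hamp, which encodes the iron hormone hepcidin, had a median of 766 RPKM (495 to 1100) in cohoused livers and 1300 RPKM (755 to 1570) in separate livers and fell by 0.63 (adjusted p = 0.025). Hamp had a difference of -0.13 and Hamp2 of -1.38 with depth as a covariate. With the trend on length and level removed Hamp, at -0.08, lost its call, while Hamp2, at -1.13, kept its call. Rsc1a1, whose single exon overlaps Ddi2, differed by -2.70, and reads of the pair cannot be told apart here. The rest of the 15 were Hspa1a, Mpp4, Mug-ps1, Dnase1, Olfr856-ps1, Pdzk1ip1 and Slc2a4rg-ps, of which Mug-ps1, Olfr856-ps1 and Slc2a4rg-ps carry the symbols of pseudogenes and Hspa1a shares nearly all of its sequence with Hspa1b.

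PPARalpha is the nuclear receptor that switches on fatty acid oxidation in the fasted liver. Of 29 tested targets, 6 were higher (20.7%) and 2 were lower (6.9%), against 15.6% and 16.1% of all genes, with a median of 0.09. The median was -0.0 in Jackson mice and 0.03 in Taconic mice. Jackson mice alone had 14 positive and 15 negative differences, and Taconic mice alone 14 and 13 of 27 tested. The summed level had a median of 4320 RPKM in cohoused livers and 5260 RPKM in separate livers. With depth as a covariate 23 of the 29 were positive, with a median of 0.22. With the trend on length and level removed 10 were higher and 0 lower, against 10.1% and 10.3% of all genes. Ppara itself had a median of 71.5 RPKM (51.5 to 91.4) in cohoused livers and 39.9 RPKM (31.3 to 60.5) in separate livers, a difference of 0.78 ± 0.17 (SE; adjusted p = 0.0071). Cpt1a, the gate for fatty acid entry into mitochondria, had a median of 149 RPKM (119 to 198) in cohoused livers and 87.6 RPKM (80 to 128) in separate livers, a difference of 0.73 ± 0.14 (SE; adjusted p = 0.0046). Pex11a, a factor of peroxisome division, ran between 127 and 158 RPKM in cohoused livers and between 57.7 and 109 RPKM in separate livers, with no overlap and a difference of 0.86 ± 0.16 (SE; adjusted p = 0.0045). Acot1, Cyp4a31 and Hadhb were the other members that rose. Acaa1b, a peroxisomal thiolase, fell by 0.53, and Fabp1 fell too. Cyp4a14, a target known for its strong response, did not pass (0.91 ± 0.65, SE; adjusted p = 0.31): it had 129, 23.2 and 134 RPKM in CoJAX and 51.7, 17.1 and 70.5 RPKM in CoTAC, against 135, 192 and 97.9 RPKM in JAX and 7.62, 4.78 and 5.17 RPKM in TAC. Every CoTAC library lay above every TAC library, while CoJAX and JAX overlapped.

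Lipid synthesis moved in no common direction. Of 23 genes of lipogenesis and triglyceride storage, 3 were higher and 4 were lower, near the shares of all genes. Gpam, which starts glycerolipid synthesis, rose by 1.57 ± 0.35 (SE; adjusted p = 0.0075), with 29.3 to 53.1 RPKM in cohoused livers and 6.41 to 34.8 RPKM in separate livers. Its TAC libraries had 6.42, 33.4 and 34.8 RPKM, and without TAC 1 its difference in Taconic mice was 0.43. Over both vendors with depth as a covariate the difference of Gpam was 0.66. Plin5, a lipid droplet protein that sits next to mitochondria, rose by 0.63 ± 0.11 (SE; adjusted p = 0.0036), and Thrsp, a lipogenic regulator, fell by 0.66 (adjusted p = 0.015). With the trend on length and level removed Thrsp, at -0.20, lost its call, while Plin5, at 0.76, kept its call. Of 24 genes of cholesterol synthesis and uptake, 4 were higher (16.7%) and 6 were lower (25%), against 15.6% and 16.1% of all genes. Of the sterol enzymes, Sc5d fell by 0.44, Mvd by 0.80 and Acat2, an acetoacetyl-CoA thiolase, by 0.39, while Hsd17b7 rose by 0.71 (adjusted p = 0.0065, 0.0087, 0.0084 and 0.007). Hmgcs1 was listed at 0 in every library.

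Gut bacteria transform bile acids, and the liver answers through the receptor FXR. Of 13 genes of bile acid synthesis and conjugation, 1 was higher and 0 were lower. It was Cyp39a1, an oxysterol hydroxylase, at 0.50 ± 0.16 (SE; adjusted p = 0.031). Cyp7a1, the rate-limiting enzyme of the classic pathway, had a median of 10.1 RPKM (7.39 to 63.3) in cohoused livers and 22.6 RPKM (9.23 to 37.6) in separate livers, which overlapped, and did not pass (-0.57 ± 0.42, SE; adjusted p = 0.31). Of 18 genes of FXR regulation and bile transport, 4 were higher and 1 was lower. Nr5a2 (LRH-1), which drives bile acid synthesis genes, had a median of 25.1 RPKM (20.3 to 30.8) in cohoused livers and 11.3 RPKM (6.74 to 23.7) in separate livers and rose by 0.96 ± 0.19 (SE; adjusted p = 0.0052). The canalicular pumps Abcc2, for conjugated organic anions, and Abcb4, for phospholipid, rose by 0.71 ± 0.16 and 0.31 ± 0.08 (SE; adjusted p = 0.0079 and 0.014). The receptor gene Nr1h4 did not pass, and its target Nr0b2 (SHP) was the member that fell.

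Genes of xenobiotic metabolism, which answer to CAR, PXR and the aryl hydrocarbon receptor, gave mixed results. Of 19 targets of CAR and PXR, 2 were higher and 6 were lower, with a median of -0.26 and of -0.06 with depth as a covariate. Cyp3a11, a main drug-metabolizing P450, fell by 0.48 (adjusted p = 0.028) but had a difference of 0.05 after quantile normalization. Cyp2b10, the standard marker of CAR activity, had 8.37, 9.36 and 15.1 RPKM in CoJAX and 1.16, 0.6 and 0.347 RPKM in CoTAC, against 3.31, 3.8 and 3.28 RPKM in JAX and 0.695, 3.41 and 1.89 RPKM in TAC. Every CoJAX library lay above every JAX library, the CoTAC and TAC libraries overlapped, and the gene did not pass over both vendors (0.27 ± 0.43, SE; adjusted p = 0.66). Of 7 genes of the aryl hydrocarbon receptor, 1 was higher and 2 were lower, Cyp1a2 by 0.52 and Nqo1 by 0.51. Of 21 conjugation genes of the UGT and SULT families 1 was higher and 3 were lower, among them Ugt1a6b, which fell by 0.95, although transcripts of the Ugt1a locus share their last exons. Of 11 Fmo and Acsm genes 2 were higher (18.2%, near the 15.6% of all genes), including the medium-chain acyl-CoA synthetase Acsm3 at 0.96 ± 0.20 (SE; adjusted p = 0.0062).

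Among genes of glucose handling, 3 of 23 were higher (13%) and 1 was lower (4.35%), against 15.6% and 16.1% of all genes. Irs2, an insulin receptor substrate, rose by 0.92 ± 0.25, the glycogen branching enzyme Gbe1 by 0.58 ± 0.14 and pyruvate carboxylase, Pcx, by 0.34 ± 0.10 (SE; adjusted p = 0.017, 0.0094 and 0.025), and Ppp1r3g fell. Of 13 genes of the amino acid response, 0 were higher and 3 were lower (23.1%, against 16.1% of all genes): the transcription factor Atf4, Ddit3 (CHOP) and Ddit4. Atf4 had 110.5, 95.05 and 102 RPKM in CoJAX and 100.2, 101 and 104 RPKM in CoTAC, against 154, 173 and 176 RPKM in JAX and 199.7, 144 and 127 RPKM in TAC. The groups did not overlap, and it differed by -0.65 ± 0.10 (SE; adjusted p = 0.0028). Its targets Asns, Trib3, Chac1 and Sesn2 did not pass the test, and the median of the list was 0.16. Of 22 genes of the urea cycle and amino acid breakdown, 1 was higher and 7 were lower, with a median of -0.23, and of 0.04 with depth as a covariate.

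Genes induced by glucocorticoids did not move together. Of 14 tested, 3 were higher and 2 were lower. Fkbp5, a co-chaperone that dampens the glucocorticoid receptor, had 76.4, 114 and 63.1 RPKM in CoJAX and 119, 66.0 and 78.6 RPKM in CoTAC, against 16.9, 24.2 and 29.9 RPKM in JAX and 28.3, 44.3 and 48.5 RPKM in TAC. It did not overlap between groups and differed by 1.46 ± 0.22 (SE; adjusted p = 0.0028). Tsc22d3 (GILZ), another direct target, ran the other way, with 66.6 to 161 RPKM in cohoused livers and 189 to 281 RPKM in separate livers, and differed by -0.98 ± 0.19 (SE; adjusted p = 0.0047). The receptor Nr3c1 rose by 0.46 ± 0.08 and the transcription factor Zbtb16 by 1.21 ± 0.38 (SE; adjusted p = 0.0043 and 0.03). The difference of Zbtb16 was 2.18 in Jackson mice and 0.25 in Taconic mice. Of 17 core clock genes 2 were higher (11.8%) and 0 were lower, against 15.6% and 16.1% of all genes. The 2 were the repressor Cry2 (0.68 ± 0.24) and the kinase Csnk1d (0.33 ± 0.10; SE; adjusted p = 0.047 and 0.026). With the trend on length and level removed neither kept its call. Dbp, a clock output whose mRNA cycles strongly, varied widely within every group, from 2.96 to 144 RPKM in cohoused livers and from 0.395 to 102 RPKM in separate livers, and the labels give no time of day for collection. Of 9 clock output factors 1 was higher, Klf9, and 1 was lower, Tsc22d3 (11.1% each, below the shares of all genes). Klf9, which also answers to glucocorticoids, ran between 68.5 and 97.8 RPKM in cohoused livers and between 36.1 and 64.3 RPKM in separate livers, with no overlap, and rose by 0.74 ± 0.14 (SE; adjusted p = 0.0047). Of 17 genes of growth hormone and IGF1 signalling 1 was higher and 4 were lower. It was Cish, a feedback inhibitor induced by growth hormone, which had 2.39, 32 and 23.4 RPKM in CoJAX and 16.8, 50.9 and 9.06 RPKM in CoTAC, against 2.08 to 5.92 RPKM in separate livers, and differed by 2.16 ± 0.57 (SE; adjusted p = 0.014). Igf1 fell by 0.49 and Igfbp3 by 0.62 (adjusted p = 0.014 and 0.021), and Igf1 had a difference of -0.08 with depth as a covariate.

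Bacterial products reach the liver through receptors such as TLR4 and through cytokines. Of 18 tested genes of microbial sensing and NF-kappaB, 0 were higher and 3 were lower, a share of lower genes near that of all genes. The median was 0.09, with 14 positive and 4 negative differences. Nfkbia, the inhibitor that NF-kappaB induces, had 74.8, 72.1 and 73.2 RPKM in CoJAX and 67.2, 64.3 and 53.3 RPKM in CoTAC, against 114, 120.1 and 131 RPKM in JAX and 116, 83.6 and 89.4 RPKM in TAC. The groups did not overlap, and it differed by -0.68 ± 0.09 (SE; adjusted p = 0.0021). The cytokine Il18 fell by 0.82 and Ly96 (MD-2), the partner of TLR4, by 0.68 (adjusted p = 0.0039 and 0.018). Tlr4, Tnf, Reg3b and Nod2 were below the filter, and Il6 and Reg3g were listed at 0 in every library. Of 28 interferon response genes 0 were higher and 8 were lower (28.6%, against 16.1% of all genes). Their median was -0.12, and -0.19 with depth as a covariate. Psmb9, a subunit of the immunoproteasome, ran between 55.8 and 79.0 RPKM in cohoused livers and between 72.1 and 119 RPKM in separate livers and fell by 0.59, Ifi27l2a fell by 0.63 and Ifi35 by 0.46 (adjusted p = 0.0039, 0.0051 and 0.0063). With the trend on length and level removed 3 of the 28 interferon genes were lower and 0 higher, against 10.3% and 10.1% of all genes. There Psmb9 and Ifi35 kept their calls, while Ifi27l2a, at -0.22, and Ly96, at -0.27, lost theirs. Of 23 acute phase genes 3 were higher and 4 were lower. Socs3, Stat3 and Steap4 rose, Socs3 with 7.07 to 28.6 RPKM in cohoused livers and 3.87 to 7.52 RPKM in separate livers, a difference of 1.40 ± 0.26 (SE; adjusted p = 0.0045). The secreted products Hp, Hpx, Orm1 and Hamp fell, and the serum amyloid genes Saa1, Saa2, Saa3 and Saa4 did not pass. With depth as a covariate 22 of the 23 acute phase genes were positive, with a median of 0.32, against 0.02 without it. With the trend on length and level removed 7 of the 23 were higher and 0 lower.

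The transcription factor NRF2 controls glutathione and detoxification genes. Of 28 such genes, 1 was higher and 17 were lower, most of them glutathione transferases of the alpha, mu, pi and theta classes. The median difference was -0.54, and it was -0.16 with depth as a covariate, where 23 of 28 were negative. With the trend on length and level removed 7 of the 28 were lower and 0 higher, against 10.3% and 10.1% of all genes. Gsta4, which clears lipid peroxidation products, had 128, 125 and 134 RPKM in CoJAX and 62.2, 85.9 and 58.4 RPKM in CoTAC, against 183, 203 and 194 RPKM in JAX and 149, 109.7 and 117 RPKM in TAC. The groups did not overlap within either vendor, and it differed by -0.72 ± 0.11 (SE; adjusted p = 0.0028). Gstm2 fell by 0.63, Gstm4 by 0.58 and Gsta2 by 0.96 (adjusted p = 0.0041, 0.0048 and 0.0056), and reads of these close relatives may be split between them. With the trend removed Gstm2, at -0.24, lost its call, while Gsta4, Gstm4 and Gsta2 kept theirs. Genes of basic cell machinery fell as well: 16 of 20 ribosomal protein genes, 15 of 22 genes of oxidative phosphorylation and 16 of 24 proteasome subunit genes were lower, while 0 ribosomal, 1 respiratory and 1 proteasome gene were higher. Rpl37, Cox7c and Psmb6 fell by 0.67, 0.72 and 0.57. Their list medians were -0.55, -0.43 and -0.26, and with depth as a covariate they were -0.11, -0.09 and -0.08. With the trend on length and level removed 2 ribosomal protein genes were higher and 2 lower, 4 oxidative phosphorylation genes were higher and 4 lower, and 5 proteasome genes were higher and 3 lower.

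These lists hold short and abundant transcripts, and the difference moved with both properties over all genes. When genes were split into 5 bins of equal number by transcript length, the shortest transcripts, up to 1617 nucleotides, had a median difference of -0.34, with 41.6% of genes lower and 1.87% higher. The longest, from 4851 nucleotides, had a median of 0.21, with 4.26% lower and 29.6% higher. With depth as a covariate these medians were -0.15 and 0.13. Of 746 genes with a mean above 25% of that of Alb, 472 were lower and 5 higher. Alb, the albumin gene, ran between 512 and 884 RPKM in cohoused livers and between 549 and 1150 RPKM in separate livers and fell by 0.57 (adjusted p = 0.03), while with depth as a covariate its difference was 0.03. The part of transcript length and level in the single results was not tested beyond the refit without this trend, in which 1157 of 11512 genes were higher (10.1%) and 1186 lower (10.3%), 1743 of them genes that passed before. The libraries CoJAX 1 and CoJAX 2 also stood apart in 47 small nucleolar RNA genes, whose median was 320 and 336 RPKM there and 0 in each of the other 10 libraries. Without these 2 libraries 836 of 11965 genes were higher (6.99%) and 1029 lower (8.6%).

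**Figure D4:**
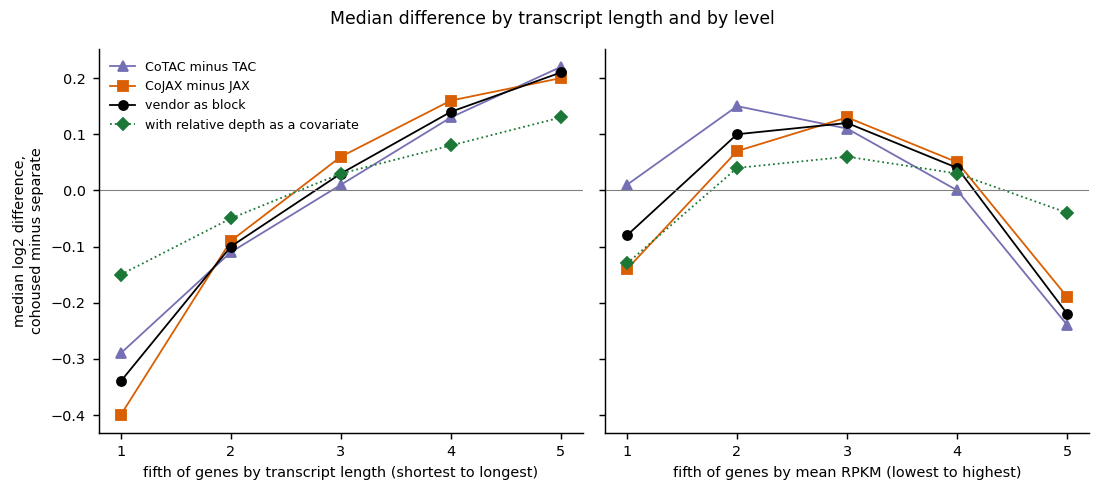
Median log2 difference of all tested genes in 5 bins of equal number by transcript length (left) and by mean RPKM (right), for CoTAC minus TAC, CoJAX minus JAX, both vendors with vendor as a block, and both with relative depth as a covariate. The median was higher in bins of longer transcripts in both vendors, from -0.34 in the shortest to 0.21 in the longest over both, and the most abundant genes had a median of -0.22.

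Nuclear speckles store splicing factors, and CLK kinases release them by phosphorylation. Of 22 tested splicing and speckle genes 0 were higher and 10 were lower, with a median of -0.27, of -0.21 with depth as a covariate and of -0.45 with the trend on length and level removed, where 11 were lower and 0 higher. The median transcript length was 3678 nucleotides in this list, 845 in the ribosomal list and 4109 in the export list. Clk1 had 42.0, 32.4 and 40.2 RPKM in CoJAX and 32.1, 51.8 and 29.8 RPKM in CoTAC, against 96.2, 92.0 and 71.8 RPKM in JAX and 86.9, 55.7 and 52.1 RPKM in TAC. The groups did not overlap, and it differed by -0.97 ± 0.17 (SE; adjusted p = 0.0036). Luc7l3, a factor of the U1 snRNP, ran between 16.8 and 24.3 RPKM in cohoused livers and between 26.5 and 51.6 RPKM in separate livers, again with no overlap, and differed by -0.89 ± 0.16 (SE; adjusted p = 0.0039). Clk4 and Srsf11 both fell by 0.88. Among the members that fell were 2 nuclear long noncoding RNAs, named after their values were seen: Neat1, the scaffold of paraspeckles, by 1.47, and Malat1 by 1.15 (adjusted p = 0.005 and 0.0075). In both, the separate libraries TAC 2 and TAC 3 lay below the JAX libraries and TAC 1, Malat1 with 129.8, 70.5 and 65.7 RPKM in TAC. With depth as a covariate Neat1 had a difference of -0.86 and Malat1 of -0.65. Without TAC 1 the list had 10 positive and 12 negative differences in Taconic mice.

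Markers of the other cell types of the liver were counted in the same way. Of 12 markers of sinusoidal endothelial cells 0 were higher and 6 were lower (50%, against 16.1% of all genes). Their summed level was 91.5 to 324 RPKM in cohoused livers, with a median of 239, and 224 to 430 RPKM in separate livers, with a median of 289. The median difference was -0.64, and -0.80 with depth as a covariate, where all 12 were negative. In bulk tissue, fewer cells of a type and less RNA per cell cannot be told apart. Eng, an endothelial co-receptor of the TGF-beta family, had 34.4, 27.5 and 38.0 RPKM in CoJAX and 15.6, 31.8 and 18.5 RPKM in CoTAC, against 55.3, 50.3 and 49.4 RPKM in JAX and 38.5, 31.1 and 31.6 RPKM in TAC, and fell by 0.65 (adjusted p = 0.008). The scavenger receptor Stab1 fell by 0.55, the hyaluronan receptor Lyve1 by 0.66 and the nuclease Dnase1l3 by 0.76 (adjusted p = 0.017, 0.026 and 0.02). These markers varied together between CoTAC libraries: their median against the vendor mean was 0.37 in CoTAC 2 and -0.79 and -0.99 in CoTAC 1 and CoTAC 3. Of 12 markers of stellate cells and fibroblasts 0 were higher and 3 were lower (25%, against 16.1% of all genes), with 5 positive and 7 negative differences. Among those that fell were Col3a1 and Ecm1 at -0.65 ± 0.13 and -0.68 ± 0.16 (SE; adjusted p = 0.005 and 0.01). Of 11 Kupffer cell markers 0 were higher and 2 were lower (18.2%), near the share of all genes. One was Cd68, a lysosomal protein of macrophages, with 6.79 to 13.3 RPKM in cohoused livers and 14 to 29.6 RPKM in separate livers and no overlap (-0.71 ± 0.18, SE; adjusted p = 0.012). Of 6 genes of MHC class II presentation, which Kupffer and dendritic cells use, 0 were higher and 2 were lower, H2-Aa by 0.77 and H2-DMb1 by 0.75 (adjusted p = 0.042 and 0.019), with a median of -0.68 and of -0.93 with depth as a covariate. Of 6 cholangiocyte markers 1 was lower (16.7%), also near that share, and of 8 leukocyte, 4 erythroid and platelet and 2 pancreas and adipocyte markers 0 passed in either direction. Lep, Pnlip and Cpa1 were listed at 0 in every library. Of 11 hepatocyte markers 1 was higher, Hnf4a at 0.39 ± 0.11 (SE; adjusted p = 0.018), and 8 were lower, with a median of -0.53 and of 0.03 with depth as a covariate. The part of cell makeup in the differences of genes outside these lists was not tested.

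The comparison was also made within each vendor. In a model with vendor, housing and their interaction, 78 genes passed for CoTAC against TAC (0.647%) and 2911 for CoJAX against JAX (24.1%). Of the 3822 genes, 3821 had the same sign in both vendors, which the choice of these genes favours, and 2853 had the larger absolute difference in Jackson mice. Their median absolute difference was 0.44 in Taconic and 0.60 in Jackson mice. Over all 12058 genes, 72.7% had the same sign in both, and the differences had a Pearson correlation of 0.46 across genes, which are not independent replicates. The share of genes that passed in 1 vendor is no test of a difference between vendors. The interaction itself, (CoTAC minus TAC) minus (CoJAX minus JAX), passed for 0 genes (0%) by limma, with 1358 at an unadjusted p under 0.05. The smallest p among named genes belonged to Rab30, a small GTPase of the Golgi. Rab30 had 21.7, 15.9 and 19.7 RPKM in CoTAC, against 7.43, 4.33 and 5.05 RPKM in TAC, and 9.86, 12.3 and 8.85 RPKM in CoJAX, against 11.3, 12.8 and 12.4 RPKM in JAX. It was higher with cohousing in Taconic mice and overlapped in Jackson mice, with an interaction of 1.94 (unadjusted p = 1.41e-05), which did not pass. The heat shock gene Hspa1b had 6.89, 6.36 and 5.46 RPKM in CoTAC, against 39.0, 24.9 and 49.0 RPKM in TAC, and 21.5, 10.6 and 15.5 RPKM in CoJAX, against 16.7, 17.1 and 8.18 RPKM in JAX, with an interaction of -2.65 (unadjusted p = 8.09e-05). Of 14 tested heat shock chaperones 0 were higher and 5 lower in the comparison of all cohoused with all separate livers (35.7% lower, against 16.1% of all genes). Their medians were -0.55 in Taconic and -0.07 in Jackson mice. Nnt, a mitochondrial enzyme gene that some C57BL/6 substrains lack in part, had 59.6, 67.3 and 55.4 RPKM in CoTAC, against 45.1, 57.6 and 61.4 RPKM in TAC, and 25.5, 34.0 and 28.8 RPKM in CoJAX, against 17.0, 19.8 and 19.4 RPKM in JAX. It passed for housing (0.39 ± 0.12, SE; adjusted p = 0.024), and its vendors did not overlap under either kind of housing. It was the 1 gene that passed of 5 tested genes known to differ between C57BL/6 substrains.

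**Figure D5:**
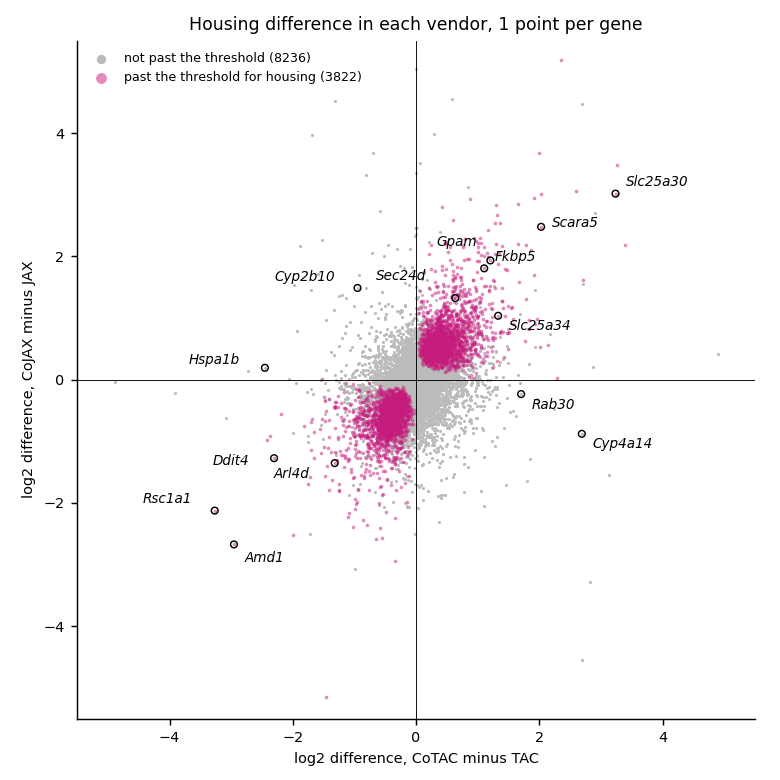
Each point is 1 of 12058 genes, with the log2 difference CoTAC minus TAC on the x axis and CoJAX minus JAX on the y axis. Of the genes past the threshold for housing (3822, pink), 3821 lie in the quadrants where both vendors have the same sign, Slc25a30 at 3.24 and 3.02, while Rab30, Hspa1b, Cyp4a14 and Cyp2b10 lie off the diagonal; 18 genes fall outside the axes.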

How the data were processed

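Poly(A)-selected RNA of mouse liver was sequenced, 3 libraries in each of 4 groups. The authors deposited 1 table of RPKM values per gene and library. Per the submitters' processing notes, Bowtie 1.0.0, Cuffdiff 2.1.1 and the build mm9 were used, with no roles given. The annotation, the strand setting and the treatment of reads shared by near-identical genes are not given in the sources; reads of overlapping or antisense neighbours may therefore be mixed. Of 23936 rows, 27 carry dates in place of gene names and were left out. Read counts were not used here. Relative depth was read from the spacing of RPKM values up to 0.6, taken as multiples of the value of 1 read (tolerance 0.1%). Not every low value is such a multiple, as Rsc1a1 had 0.0019 RPKM in CoTAC 1. Reads were scaled with GENCODE M21 transcript lengths, so the read numbers are approximate. One read of a 2000-nucleotide transcript was worth 0.141 to 0.35 RPKM.

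Genes that reached 1 RPKM in 3 or more libraries were tested with limma 3.58.1 in R 4.3.3 (trended variance, two-sided) on log2(RPKM + 0.5), with vendor as a block; the interaction was added for the second test. Single values of libraries were tested by exact permutation within vendor. The fits were tested on simulated data. The members and gene lists were chosen with earlier results of these data known. Named genes are the 15 largest rises and the 15 largest falls among genes past the threshold whose libraries overlap in neither vendor, leaving out unnamed models and small RNA genes, up to 4 members of each list with the smallest p, the interaction genes of smallest p, and Alb, Mir703, Nnt, Dbp, Cyp7a1, Cyp2b10 and Cyp4a14, of which the text gives a part. Copb1, Slc25a34, Neat1 and Malat1 were named after their values were seen. Libraries had pairwise Spearman correlations of 0.951 to 0.968, and 0 pairs were identical. Alternatives changed the pseudocount, the filter, the scaling, the covariates and the libraries. The refit with the length and level trend removed was chosen after seeing the data.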

Additional observations from a re-analysis of the deposited data

Results flagged for a closer look

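Among the 118 genes named for housing, each housing group of 6 libraries was searched for a single library far from the other 5, relative to the range of the group. Of 236 groups, 14 held one, and chance alone flags about 1 in 20. In cohoused livers the highest library stood apart in Sec23a (66.6 RPKM in CoTAC 1, next 47.9) and Copb1 (82.2 RPKM in CoTAC 1, next 65.6), and their groups do not overlap without it either. The same was seen in cohoused livers for Cyp7a1 (63.3 RPKM in CoJAX 2, next 19.4), H2-DMb1 (7.53 RPKM in CoJAX 3, next 4.04), Malat1 (85.4 RPKM in CoTAC 2, next 48.2), Amd1 (0.540 RPKM in CoJAX 1, next 0.356) and Oaz3 (0.270 RPKM in CoTAC 2, the other libraries listed at 0). In separately housed livers the highest library stood apart in Amd1 (41.0 RPKM in TAC 3, next 14.8), Cpt1a (128 RPKM in TAC 3, next 97.0), Cry2 (23.5 RPKM in TAC 3, next 11.7), Plin5 (117 RPKM in TAC 2, next 88.9), Dnase1 (3.88 RPKM in JAX 3, next 2.16) and Cd68 (29.6 RPKM in JAX 1, next 18.1). The lowest stood apart in Igfbp3 (13.4 RPKM in TAC 3, next 20.2). TAC 3, the deepest separately housed library, accounts for 4 of the 14, and the part of depth in these values was not tested.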

How the results depend on the processing

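The counts of genes past the threshold (1881 higher, 1941 lower in cohoused livers) stayed within 1.5 times under other pseudocounts, filters and scalings, array weights, the 4-group model and no vendor term. They were 2 and 0 with relative depth as a covariate, 836 and 1029 without CoJAX 1 and CoJAX 2, and 1157 and 1186 with the length and level trend removed. Taconic mice alone gave 5 and 4, and 1 and 0 without the library TAC 1. Jackson mice alone, with as many libraries as all Taconic mice, gave 1452 and 1560. Fits on part of the libraries have fewer samples, which holds for Jackson mice alone as for Taconic mice alone. The depth covariate overlaps with housing. The share of each cause was not tested. Leaving out 1 library at a time gave 1381 to 2092 higher and 1391 to 2142 lower genes. The interaction passed for 0 genes, for 3 with no filter on low values, 2 with depth as a covariate and 10 with array weights. Leaving out 1 library gave 0 to 46, with 46 without TAC 1 and 6 without CoTAC 2, so the count rests on single libraries.

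Same-numbered libraries of different groups deviated together in 1 of 18 pairs (correlations of -0.174 to 0.151, limit 0.1), so equal numbers gave no pairing to use. This does not address shared cages, since CoJAX and CoTAC libraries under other numbers may come from cage mates. The labels do not tell which, and the cohoused libraries were treated as independent. With the replicate block 1590 genes were higher and 1684 lower, and 0 passed for the interaction. Of the 114 named genes that passed, 112 still did with the block, 92 with the trend removed, 2 with depth as a covariate and 102 to 114 without 1 library. Signs turned in 6 of the 118 genes named for housing, and Rab30 and Hspa1b, named for the interaction, had -0.23 and 0.19 in Jackson mice, against 0.74 and -1.13 over both vendors. Alb had 0.03 with depth as a covariate and Cyp3a11 0.05 after quantile normalization, and Zbtb16 had -0.01 in Taconic mice without TAC 1. Of genes that had not passed, Cyp2b10 had -0.31 with depth as a covariate, -0.95 in Taconic mice and -1.40 there without TAC 1, Cyp4a14 -0.88 in Jackson mice, and Dbp -1.38 with depth as a covariate. Precision for genes of a few RPKM is limited by depth, since 1 read of a 2000-nucleotide transcript is worth up to 0.35 RPKM.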
